A study of Mus musculus with 12 samples.

Results

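The T, NK and B lymphocyte genes are 36 genes chosen by symbol from the table of 55471 gene identifiers. They comprise 20 genes of T cells, 11 of natural killer (NK) cells and cytotoxic effector cells and 5 of the B lineage. All were read in left kidneys of mice of strain C57/BL6; the protocol given for every sample states an age of 8 to 12 weeks at operation, though it names the knockout mice alone. The operation was unilateral ureteral obstruction (UUO): a microvascular clamp closed the left ureter, and the kidney on that side was taken 0 or 5 days later. Sprr2f knockout (KO) kidneys gave 3 libraries at day 5 and 4 at day 0, and wild type (WT) kidneys 3 at day 5 and 2 at day 0. The labels do not say how the knockout was made or whether a day 0 kidney was clamped. Beyond a code in each title nothing states that replicates were separate animals. The p-values therefore measure the spread between these libraries.

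T cells recognise antigen through a receptor whose variable chains are coupled to the CD3 subunits, with Cd4 or Cd8 as coreceptor and the kinases Lck and Zap70 as the first signalling steps. NK cells and cytotoxic T cells kill target cells with granzymes and perforin, and NK cells read target cells through lectin-like and immunoglobulin-like receptors. B cells carry membrane antibody together with the signalling pair Cd79a and Cd79b, and plasma cells secrete antibody. A normal kidney holds few lymphocytes, and obstruction of the ureter is known for a leukocyte infiltrate in which macrophages prevail.

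The libraries held 16567256 to 19398882 reads, so that 1 read was worth 0.0515 to 0.0604 CPM (reads of a gene scaled to a fixed library total). All values below are either these reads or CPM divided by a scaling factor per library (trimmed mean of M-values, TMM), called scaled CPM. Day 5 libraries had factors of 1.13 to 1.19, and those of day 0 ranged between 0.795 and 0.897. The targeted gene Sprr2f had 0, 39 and 76 reads in KO kidneys at day 5, 5, 2, 0 and 0 in KO kidneys at day 0, 482, 447 and 1138 in WT kidneys at day 5, and 2 and 0 in WT kidneys at day 0. The series is described as one of female mice, but 7 of the 12 libraries held transcripts of Y-linked genes and only 5 held Xist, the transcript of the inactive X chromosome. Y-linked transcripts were present in 1 of 3 KO kidneys at day 5, in all 4 KO kidneys at day 0, in 1 of 3 WT kidneys at day 5 and in 1 of 2 WT kidneys at day 0.

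The 36 genes together took 1312 to 1929 reads in KO kidneys at day 5, against 370 to 510 in KO kidneys at day 0. In WT kidneys they took 1541 to 2268 reads at day 5, against 397 to 460 at day 0. Even at day 5 this was only 0.00730 to 0.0127% of all reads. The genes are therefore read at low depth, and single values of under about 10 reads carry a wide counting error.

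Transcripts of all 3 lineages were more abundant in obstructed kidneys of both genotypes. The summed level of the 20 T cell genes was 45.2 ± 8.83 scaled CPM in KO kidneys at day 5, against 15.6 ± 0.54 at day 0 (SD, n = 3 and 4), a ratio of 2.90. The WT sums were 48.1 ± 12.2 at day 5, against 15.8 ± 0.28 at day 0 (SD, n = 3 and 2), a ratio of 3.05. No day 5 library overlapped a day 0 library of its genotype.

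The 11 NK and effector genes summed to 11.0 ± 1.23 scaled CPM in KO kidneys at day 5, against 4.31 ± 0.92 at day 0. In WT kidneys the sum was 13.0 ± 1.82 at day 5, against 3.05 ± 0.21 at day 0. The ratios were 2.55 in KO and 4.25 in WT kidneys. The 5 B lineage genes summed to 22.2 ± 2.69 scaled CPM in KO kidneys at day 5, against 10.5 ± 2.38 at day 0, and to 25.3 ± 6.08 in WT kidneys at day 5, against 7.11 ± 3.21 at day 0. The ratios were 2.11 in KO and 3.55 in WT kidneys, and the heavy chain gene Ighm alone gave 53.5 to 75.8% of the B lineage reads in a library. In this whole-tissue RNA, a larger number of cells of a type cannot be told apart from more RNA per cell.

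**Figure D1:**
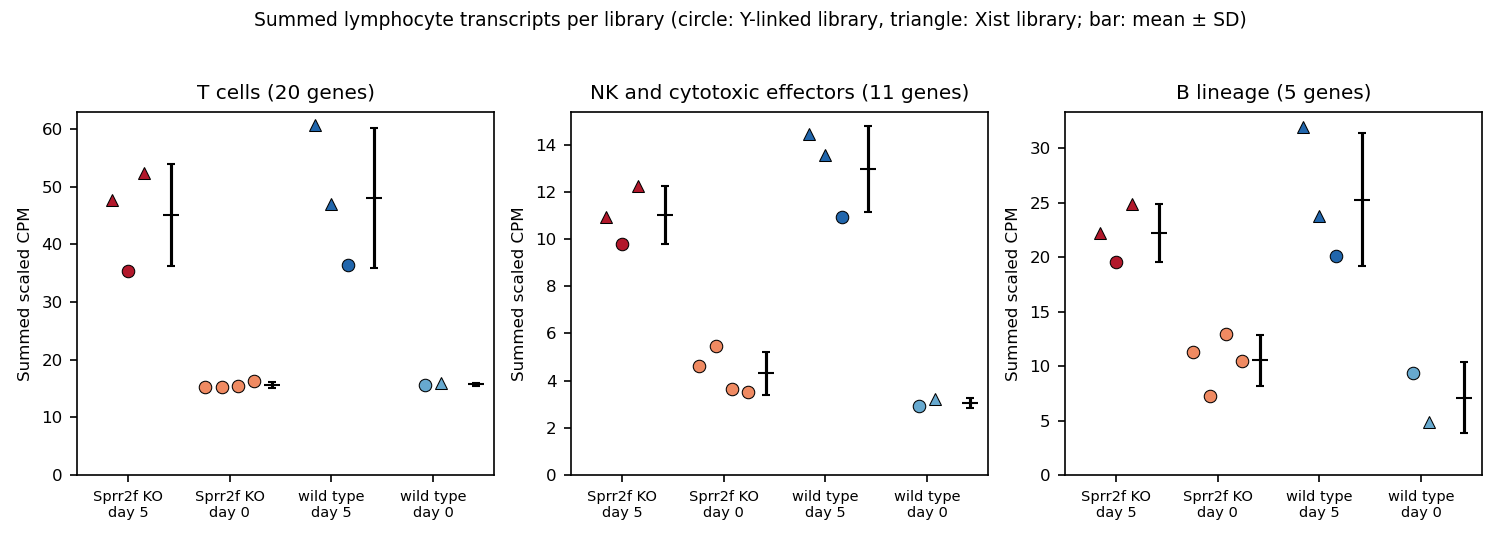
Summed scaled CPM (vertical axis) of the T cell, NK and effector and B lineage genes in each of 12 libraries, for Sprr2f KO kidneys at day 5 and day 0 and wild type kidneys at day 5 and day 0; circles are libraries with Y-linked transcripts, triangles those with Xist, and bars the mean ± SD. In all 3 panels the day 5 libraries lie above the day 0 libraries of the same genotype, and the library with Y-linked transcripts is the lowest of the 3 at day 5 in both genotypes.

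Sex-chromosome pattern moved with these lineage sums at day 5, though not with those of the further lists given below. Among day 0 groups only WT held both patterns. There the library with Y-linked transcripts had the higher B lineage sum, 9.38 beside 4.83. Its T cell sum was 15.6 beside 16.0, and its NK and effector sum 2.91 beside 3.20. At day 5 the library with Y-linked transcripts had the lowest T cell sum of its group, 35.3 scaled CPM in KO kidneys beside 47.7 and 52.4 in the others, and 36.5 in WT kidneys beside 60.8 and 47.1. Both values were still above every day 0 library, whose T cell sums were 15.2 to 16.4 in KO and 15.6 and 16.0 in WT kidneys. Blood moved with them in WT kidneys: 7 red blood cell genes, most of them globins, summed to 3931, 1080 and 244 scaled CPM in the WT day 5 libraries with T cell sums of 60.8, 47.1 and 36.5. The same genes summed to 198, 287 and 196 in KO kidneys at day 5, 153 to 299 in KO kidneys at day 0, and 300 and 290 in WT kidneys at day 0. The WT library without excess globin is also the one with Y-linked transcripts, so the share of either in the WT differences cannot be told apart. At day 5 the further NK list was highest in the libraries with Y-linked transcripts, 63.7 in KO kidneys beside 54.9 and 54.4. In WT kidneys it was 68.8 beside 62.5 and 64.2. The further B and plasma cell list was also highest there, at 414 in KO and 416 in WT kidneys. The further T cell list was highest there in KO kidneys, 199 beside 196 and 184. In WT kidneys it was in between, 223 beside 250 and 203.

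Of the 36 genes, 33 passed the filter on low counts and were tested with limma among 18093 genes; Ifng, Prf1 and Ms4a1 did not pass. A gene was called at a Benjamini-Hochberg adjusted p under 0.05 over all tested genes, and fold changes are of log2(scaled CPM + 0.5), a scale that understates the change of low genes. In KO kidneys 24 of 33 genes rose at day 5 and 0 fell, where 29.4% of all tested genes rose and 25.4% fell. In WT kidneys 24 rose and 0 fell, against 24.5% and 22.6% of all genes. The median log2 fold change of the 33 genes was 0.87 in KO and 1.13 in WT kidneys, beside 0.07 and 0.04 over all tested genes. On the recovered reads, with no 0.5 CPM added, edgeR gave a median of 1.36 in KO and 1.90 in WT kidneys.

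Both genotypes shared 21 of these calls. Cd28, Cd8a and Klrb1c were called in KO kidneys without a call in WT, Cd3e, Jchain and Tbx21 in WT without a call in KO, and Cd27, Foxp3, Ctla4, Gzmb, Eomes and Cd79a in neither. By library, 22 of 33 genes had all KO day 5 kidneys above all KO day 0 kidneys after scaling, where 29.5% of all tested genes did. In WT kidneys 27 did, beside 34.4% of all genes, and Cd27 alone had both day 0 libraries above all 3 of day 5, beside 30.7% of all genes. Restricted to the 7 libraries with Y-linked transcripts, which leaves 1 KO and 1 WT library at day 5, 12 of 30 genes rose in KO and 8 of 30 in WT kidneys, beside 22.2% and 16.5% of all genes tested there. Their median log2 fold changes were 0.74 in KO and 0.85 in WT kidneys, and the lone libraries are assumed to vary like the rest. Without the pair of globin-rich WT libraries 11 of 33 rose in WT kidneys, beside 17.1% of all genes tested there, and the median log2 fold change was 0.76.

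**Figure D2:**
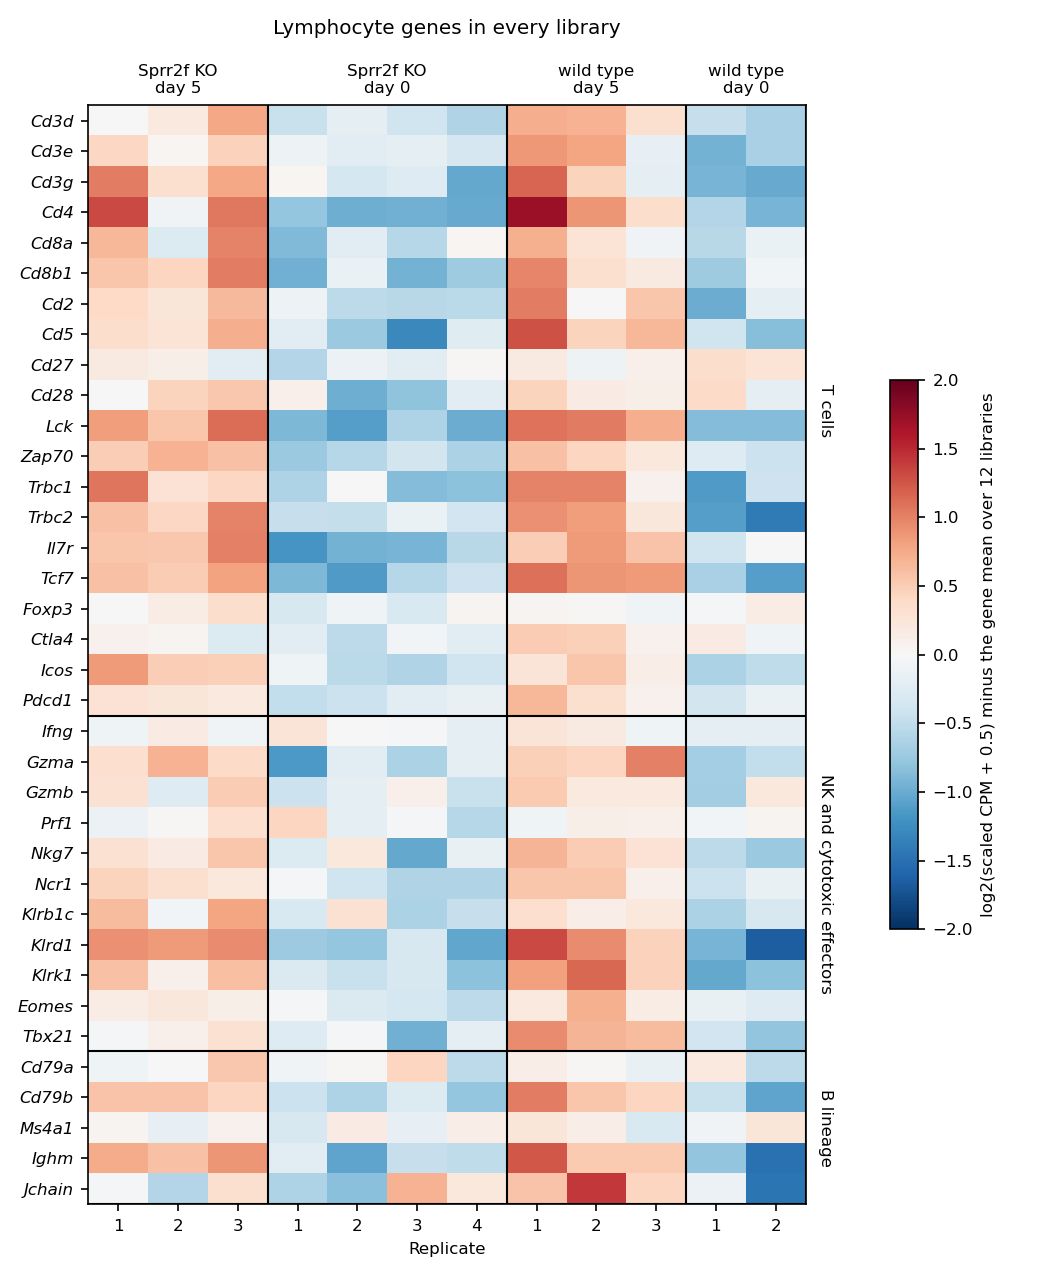
Level of each of the 36 genes (rows, by lineage) in each of 12 libraries (columns, by group and replicate), as log2(scaled CPM + 0.5) minus the mean of the gene over the 12 libraries; red is above and blue below that mean. The day 5 columns of both genotypes are mostly red and the day 0 columns mostly blue, with Cd27, Foxp3, Ms4a1, Prf1 and Cd79a showing little of this contrast.

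Of the genes for the T cell receptor complex, 4 rose in KO kidneys and all 5 in WT kidneys. Cd3d, a signalling subunit of the receptor on chromosome 9 (GRCm38, 44981786 to 44987339), had 35, 37 and 64 reads in KO kidneys at day 5, against 16, 17, 16 and 14 at day 0. Cd3d in WT kidneys had 60, 55 and 46 reads at day 5, against 16 and 13 at day 0. No day 5 library overlapped day 0 in either genotype. The log2 fold change of Cd3d was 0.74 ± 0.21 (SE, adjusted p = 0.00944) in KO and 1.13 ± 0.25 (SE, adjusted p = 0.00227) in WT kidneys.

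Cd3g, a further subunit next to Cd3d, had 80, 40 and 62 reads in KO kidneys at day 5, against 25, 14, 18 and 8 at day 0. Cd3g in WT kidneys had 84, 44 and 28 reads at day 5, against 9 and 8 at day 0. The day 5 values were spread over a wide range in both genotypes, with the lowest in the library with Y-linked transcripts. For Cd3g the log2 fold change was 1.10 ± 0.32 (SE, adjusted p = 0.0114) in KO and 1.44 ± 0.38 (SE, adjusted p = 0.00762) in WT kidneys. Cd3e, the third CD3 subunit, had 35, 22 and 35 reads in KO kidneys at day 5, against 15, 11, 13 and 12 at day 0. Cd3e in WT kidneys had 49, 43 and 20 reads at day 5, against 5 and 8 at day 0. All day 5 libraries were higher than day 0 in both genotypes, and the log2 fold change was 0.52 ± 0.24 (SE, adjusted p = 0.0859) in KO kidneys, without a call, and 1.29 ± 0.29 (SE, adjusted p = 0.00251) in WT kidneys.

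Trbc1 and Trbc2 are the alternative constant segments of the receptor beta chain. They lie next to each other on chromosome 6 (41538218 to 41539881 and 41546730 to 41548352), and 40.5% of the distinct 50-base sequences of Trbc1 also occur in Trbc2, so reads of one may have been lost or given to the other. Trbc1 had 66, 30 and 36 reads in KO kidneys at day 5, against 9, 15, 6 and 7 at day 0. Trbc1 in WT kidneys had 58, 54 and 28 reads at day 5, against 4 and 12 at day 0. Trbc2 had 56, 43 and 74 reads in KO kidneys at day 5, against 15, 12, 20 and 17 at day 0. Trbc2 in WT kidneys had 68, 60 and 41 reads at day 5, against 7 and 4 at day 0. Both genes were higher in every day 5 library, and the low day 0 values of Trbc2 in WT kidneys, 7 and 4 reads, were under all 4 KO values. Trbc1 had a log2 fold change of 1.17 ± 0.31 (SE, adjusted p = 0.00652) in KO and 1.46 ± 0.37 (SE, adjusted p = 0.00584) in WT kidneys. Trbc2 had one of 1.03 ± 0.22 (SE, adjusted p = 0.00134) in KO and 1.91 ± 0.26 (SE, adjusted p = 5.77e-05) in WT kidneys.

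All 3 coreceptor genes rose in KO kidneys, and Cd4 and Cd8b1 in WT kidneys. Cd4, the coreceptor of helper and regulatory T cells that some mouse dendritic cells also carry, had 180, 55 and 140 reads in KO kidneys at day 5, against 24, 16, 19 and 20 at day 0. Cd4 in WT kidneys had 223, 114 and 87 reads at day 5, against 29 and 21 at day 0. Every day 5 library exceeded every day 0 library, with the lowest KO value, 55 reads, and the lowest WT value, 87 reads, in the libraries with Y-linked transcripts. For Cd4 the log2 fold change was 1.69 ± 0.34 (SE, adjusted p = 0.00101) in KO and 1.74 ± 0.41 (SE, adjusted p = 0.00343) in WT kidneys.

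Cd8a, the coreceptor chain of cytotoxic T cells that some dendritic cells share, had 92, 38 and 112 reads in KO kidneys at day 5, against 17, 26, 22 and 41 at day 0. Cd8a in WT kidneys had 89, 59 and 51 reads at day 5, against 24 and 35 at day 0. The KO groups overlapped after scaling, since the library of 38 reads was no higher than the day 0 library of 41 reads, and the WT groups did not. For Cd8a the log2 fold change was 0.87 ± 0.31 (SE, adjusted p = 0.0324) in KO kidneys and, without a call, 0.65 ± 0.38 (SE, adjusted p = 0.177) in WT kidneys. Cd8b1, the partner chain found on conventional cytotoxic T cells, had 29, 23 and 42 reads in KO kidneys at day 5, against 2, 8, 2 and 4 at day 0. Cd8b1 in WT kidneys had 40, 20 and 20 reads at day 5, against 4 and 11 at day 0. No groups overlapped, and the log2 fold change was 1.35 ± 0.28 (SE, adjusted p = 0.00112) in KO and 0.88 ± 0.33 (SE, adjusted p = 0.0442) in WT kidneys. The WT call of Cd8b1 was lost with edgeR (adjusted p = 0.0703), DESeq2 (adjusted p = 0.0663) and limma-voom (adjusted p = 0.0711).

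The number of Cd4 reads per Cd8a read, a measure chosen after its values were seen, had a geometric mean of 1.52 in KO kidneys at day 5, against 0.778 in KO kidneys at day 0. In WT kidneys it was 2.02 at day 5, against 0.851 at day 0. The lowest KO value of day 5, 1.25, was under the highest of day 0, 1.41, and the WT values, 1.71 to 2.51 at day 5 and 0.6 and 1.21 at day 0, did not overlap. No test was run on the ratio.

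Lck, the kinase bound to Cd4 and Cd8, had the smallest adjusted p of the 36 genes in both genotypes. It had 124, 90 and 145 reads in KO kidneys at day 5, against 21, 14, 26 and 20 at day 0. Lck in WT kidneys had 140, 126 and 115 reads at day 5, against 22 and 22 at day 0. All 6 day 5 libraries held at least 90 reads and no day 0 library more than 26. For Lck the log2 fold change was 1.73 ± 0.18 (SE, adjusted p = 5.11e-06) in KO and 1.82 ± 0.22 (SE, adjusted p = 2.10e-05) in WT kidneys. Zap70, the kinase recruited to phosphorylated CD3 chains, had 52, 55 and 53 reads in KO kidneys at day 5, against 11, 11, 16 and 13 at day 0. Zap70 in WT kidneys had 52, 43 and 41 reads at day 5, against 19 and 16 at day 0. The day 5 values lay within a narrow range and above all day 0 values, and the log2 fold change was 1.17 ± 0.16 (SE, adjusted p = 6.10e-05) in KO and 0.76 ± 0.20 (SE, adjusted p = 0.00657) in WT kidneys.

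Il7r, the receptor chain for the survival cytokine interleukin 7, had 45, 40 and 63 reads in KO kidneys at day 5, against 4, 5, 6 and 11 at day 0. Il7r in WT kidneys had 40, 51 and 46 reads at day 5, against 13 and 20 at day 0. The day 5 groups overlapped, and the KO day 0 libraries of 4 to 11 reads lay under the WT day 0 libraries of 13 and 20 reads. For Il7r the log2 fold change was 1.61 ± 0.21 (SE, adjusted p = 2.90e-05) in KO and 0.83 ± 0.25 (SE, adjusted p = 0.0137) in WT kidneys. Tcf7, a transcription factor of naive and memory T cells, had 122, 103 and 136 reads in KO kidneys at day 5, against 26, 17, 33 and 41 at day 0. Tcf7 in WT kidneys had 167, 133 and 150 reads at day 5, against 33 and 22 at day 0. Its day 5 levels were far above day 0 in every library, with a log2 fold change of 1.38 ± 0.20 (SE, adjusted p = 6.78e-05) in KO and 1.82 ± 0.23 (SE, adjusted p = 3.99e-05) in WT kidneys.

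The promoters of Lck and Il7r are shown because these genes had the smallest adjusted p of the T cell genes in KO kidneys and each has a window that holds more than 1 of the lymphoid motifs searched. The sequences are from RefSeq (build GRCm38.p6), 250 bases before to 50 after the annotated start, and 25 of the 36 genes had an entry, with 31 windows in all. A gene is counted where any of its windows holds the letters. Capitals mark matches, on either strand, to the core recognised by RUNX factors (TGTGGT, in 18.9% of 27025 genes) and to a site of ETS factors (ACAGGAAG, in 4.06%). The Lck window shown is chr4:129573592-129573891, while its second window, at another annotated start, holds none of the motifs, and the Il7r window is chr15:9529827-9530126, both on the minus strand.
Lck: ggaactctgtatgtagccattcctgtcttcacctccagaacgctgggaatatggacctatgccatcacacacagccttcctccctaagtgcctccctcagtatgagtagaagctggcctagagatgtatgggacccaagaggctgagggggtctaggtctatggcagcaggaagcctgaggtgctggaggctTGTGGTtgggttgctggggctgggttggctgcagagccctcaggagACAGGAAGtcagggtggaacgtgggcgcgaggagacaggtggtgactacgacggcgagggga
Il7r: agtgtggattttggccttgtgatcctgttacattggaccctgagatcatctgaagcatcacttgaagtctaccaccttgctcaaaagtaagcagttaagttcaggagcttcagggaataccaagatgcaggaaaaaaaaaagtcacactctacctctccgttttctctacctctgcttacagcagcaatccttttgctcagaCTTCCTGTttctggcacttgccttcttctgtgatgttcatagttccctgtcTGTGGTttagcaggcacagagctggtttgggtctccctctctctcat
Of the 13 T cell genes with an entry, 3 held the RUNX core (Lck, Il7r and 1 of 3 windows of Zap70), 4 the ETS letters (the same genes and Cd3e) and 2 the letters CTTTGAT of TCF and LEF factors (Cd3d and Ctla4), the last found in 4.29% of all genes. A match of letters is a description of the window and does not show that a factor was bound.

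Of the 4 genes of adhesion and costimulation, 3 rose in KO and 2 in WT kidneys. Cd2, an adhesion receptor of T and NK cells, had 36, 28 and 43 reads in KO kidneys at day 5, against 16, 8, 9 and 10 at day 0. Cd2 in WT kidneys had 58, 22 and 42 reads at day 5, against 5 and 15 at day 0. Cd5, a restraining receptor on T cells and some B cells, had 24, 20 and 33 reads in KO kidneys at day 5, against 9, 3, 0 and 9 at day 0. Cd5 in WT kidneys had 52, 23 and 33 reads at day 5, against 7 and 3 at day 0. Neither gene overlapped between days in either genotype. The log2 fold change of Cd2 was 0.86 ± 0.26 (SE, adjusted p = 0.0147) in KO and 1.12 ± 0.31 (SE, adjusted p = 0.0107) in WT kidneys, and that of Cd5 was 1.08 ± 0.29 (SE, adjusted p = 0.00674) in KO and 1.42 ± 0.34 (SE, adjusted p = 0.00437) in WT kidneys.

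Cd28, the main costimulatory receptor, had 11, 17 and 20 reads in KO kidneys at day 5, against 9, 0, 1 and 6 at day 0. Cd28 in WT kidneys had 18, 12 and 13 reads at day 5, against 13 and 6 at day 0. The days overlapped in both genotypes after scaling, and the call in KO kidneys rested on day 0 values of 9, 0, 1 and 6 reads, with a log2 fold change of 0.80 ± 0.27 (SE, adjusted p = 0.0247), beside 0.15 ± 0.32 (SE, adjusted p = 0.737) in WT kidneys. The KO call of Cd28 was lost with edgeR (adjusted p = 0.0619) and DESeq2 (adjusted p = 0.051). Cd27, a costimulatory receptor of T, NK and memory B cells, had 34, 29 and 22 reads in KO kidneys at day 5, against 11, 15, 16 and 22 at day 0. Cd27 in WT kidneys had 32, 23 and 32 reads at day 5, against 29 and 27 at day 0. In WT kidneys the day 0 reads lay within the day 5 range, and after scaling both day 0 libraries were above all 3 of day 5. It was not called, with a log2 fold change of 0.24 ± 0.19 (SE, adjusted p = 0.287) in KO and -0.24 ± 0.22 (SE, adjusted p = 0.401) in WT kidneys; no other tested member had a lower WT value.

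Of the 4 regulatory and checkpoint genes, Icos and Pdcd1 rose in both genotypes and Foxp3 and Ctla4 in neither. Icos, an inducible costimulator, had 32, 20 and 21 reads in KO kidneys at day 5, against 8, 3, 3 and 5 at day 0. Icos in WT kidneys had 16, 21 and 15 reads at day 5, against 3 and 4 at day 0. Pdcd1, which encodes the checkpoint receptor PD-1, had 13, 11 and 11 reads in KO kidneys at day 5, against 2, 2, 4 and 5 at day 0. Pdcd1 in WT kidneys had 19, 12 and 10 reads at day 5, against 3 and 5 at day 0. All day 5 libraries were above all day 0 libraries for both genes. The log2 fold change of Icos was 1.02 ± 0.19 (SE, adjusted p = 0.000572) in KO and 0.89 ± 0.23 (SE, adjusted p = 0.006) in WT kidneys, and that of Pdcd1 was 0.56 ± 0.18 (SE, adjusted p = 0.018) in KO and 0.61 ± 0.22 (SE, adjusted p = 0.0325) in WT kidneys. Pdcd1 lost its call with DESeq2 in KO (adjusted p = 0.0657) and WT kidneys (adjusted p = 0.119), and with limma-voom in WT kidneys (adjusted p = 0.0626). Foxp3, the defining factor of regulatory T cells, was not called, with 4 to 15 reads in KO and 7 to 10 reads in WT libraries. Its 95% intervals for the log2 fold change were -0.03 to 0.70 in KO and -0.50 to 0.37 in WT kidneys, and 23.1% of its distinct 50-base sequences also occur in overlapping genes such as Flicr and Ccdc22. Ctla4, the inhibitory partner of Cd28, had at most 11 reads and was not called, with intervals of -0.20 to 0.61 in KO and -0.17 to 0.80 in WT kidneys.

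**Figure D3:**
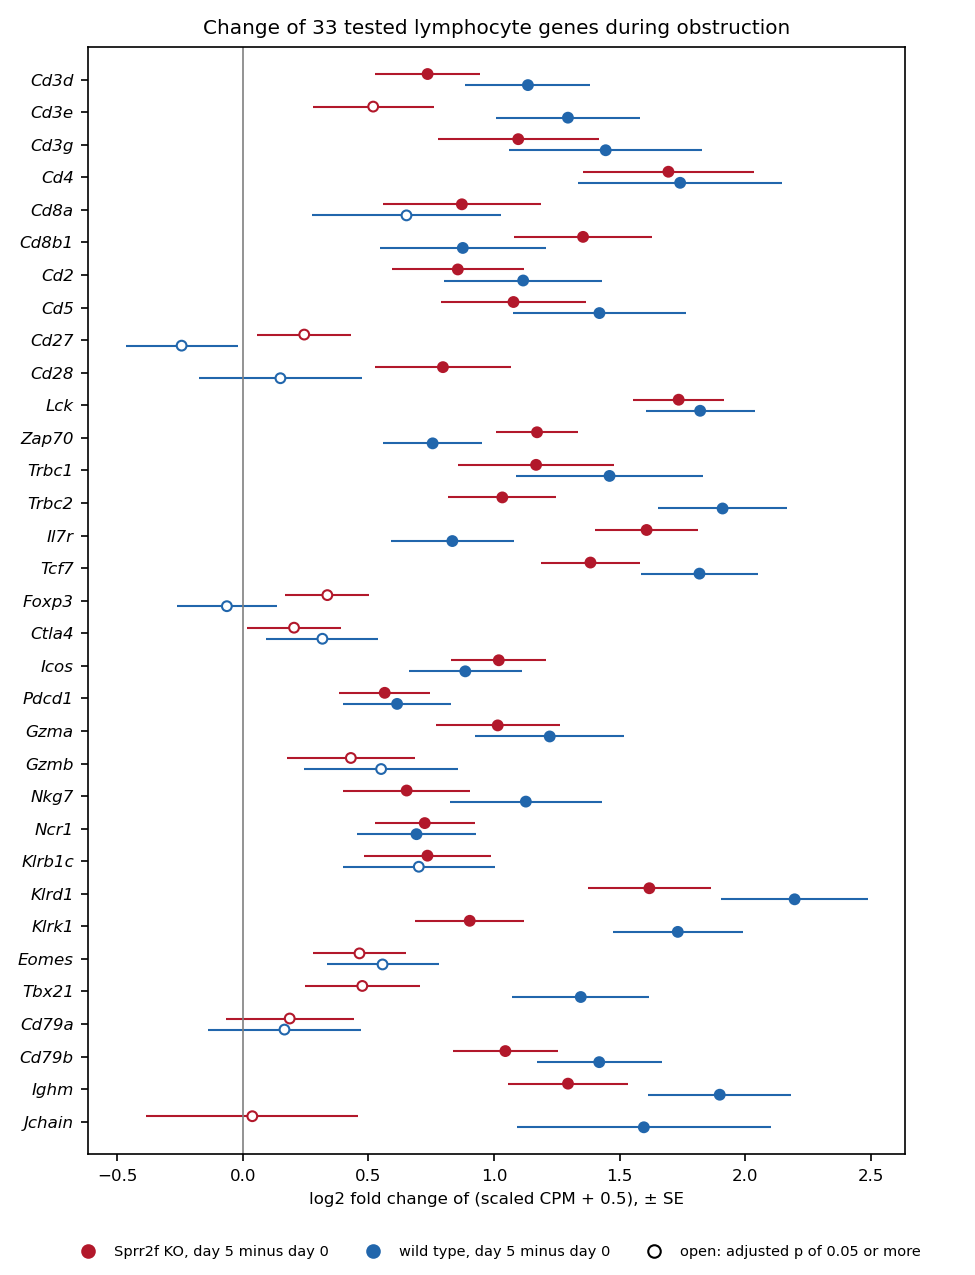
Log2 fold change of (scaled CPM + 0.5), day 5 minus day 0, with its SE (horizontal axis), of the 33 tested genes (vertical axis) in Sprr2f KO kidneys (red, upper) and wild type kidneys (blue, lower); filled points were called at an adjusted p under 0.05. Most points lie between 0.5 and 2, Lck is far right in both genotypes, and Cd27, Foxp3 and Cd79a lie near 0.

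Of the 9 tested NK and effector genes, 6 rose in KO kidneys and 6 in WT kidneys. Klrd1, the CD94 chain that pairs with the NKG2 receptors, had the largest WT log2 fold change of all 36 genes. It had 64, 54 and 62 reads in KO kidneys at day 5, against 9, 7, 14 and 6 at day 0. Klrd1 in WT kidneys had 82, 57 and 44 reads at day 5, against 7 and 1 at day 0. All 6 day 5 libraries held at least 44 reads and no day 0 library more than 14. For Klrd1 the log2 fold change was 1.62 ± 0.25 (SE, adjusted p = 0.000119) in KO and 2.20 ± 0.29 (SE, adjusted p = 5.35e-05) in WT kidneys. Klrk1, the activating receptor NKG2D of NK and cytotoxic T cells, had 40, 23 and 39 reads in KO kidneys at day 5, against 12, 8, 11 and 6 at day 0. Klrk1 in WT kidneys had 46, 57 and 36 reads at day 5, against 4 and 6 at day 0. The groups did not overlap in either genotype, and the log2 fold change was 0.90 ± 0.22 (SE, adjusted p = 0.00354) in KO and 1.73 ± 0.26 (SE, adjusted p = 0.000137) in WT kidneys.

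Ncr1, which encodes the natural cytotoxicity receptor NKp46 and is largely restricted to NK cells, had 12, 9 and 8 reads in KO kidneys at day 5, against 4, 1, 0 and 0 at day 0. Ncr1 in WT kidneys had 13, 12 and 7 reads at day 5, against 1 and 3 at day 0. No day 0 library held more than 4 of its reads, and the log2 fold change was 0.72 ± 0.20 (SE, adjusted p = 0.0078) in KO and 0.69 ± 0.24 (SE, adjusted p = 0.0292) in WT kidneys. The WT call of Ncr1 was lost with edgeR (adjusted p = 0.0736), DESeq2 (adjusted p = 0.099) and limma-voom (adjusted p = 0.0723). Klrb1c, the NK1.1 antigen of C57BL/6 mice, had 16, 5 and 18 reads in KO kidneys at day 5, against 2, 6, 0 and 1 at day 0. Klrb1c in WT kidneys had 10, 7 and 9 reads at day 5, against 0 and 2 at day 0. The KO groups overlapped, the log2 fold change was 0.73 ± 0.25 (SE, adjusted p = 0.0264) in KO and, without a call, 0.70 ± 0.30 (SE, adjusted p = 0.0754) in WT kidneys, and 17.0% of its distinct 50-base sequences also occur in neighbours such as Gm44511 and Klrb1a. The KO call of Klrb1c was lost with DESeq2 (adjusted p = 0.0542).

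Gzma, a granule protease, had 28, 35 and 28 reads in KO kidneys at day 5, against 2, 9, 6 and 12 at day 0. Gzma in WT kidneys had 30, 27 and 52 reads at day 5, against 6 and 8 at day 0. Nkg7, a granule membrane protein, had 43, 34 and 51 reads in KO kidneys at day 5, against 18, 23, 7 and 21 at day 0. Nkg7 in WT kidneys had 55, 45 and 43 reads at day 5, against 14 and 11 at day 0. Gzma did not overlap between days in either genotype, and Nkg7 overlapped in KO kidneys after scaling, where its adjusted p was close to the threshold. The log2 fold change of Gzma was 1.01 ± 0.25 (SE, adjusted p = 0.00387) in KO and 1.22 ± 0.30 (SE, adjusted p = 0.00436) in WT kidneys, and that of Nkg7 was 0.65 ± 0.25 (SE, adjusted p = 0.0448) in KO and 1.13 ± 0.30 (SE, adjusted p = 0.0083) in WT kidneys. The KO call of Nkg7 held in 6 of 23 alternative settings and was lost with edgeR (adjusted p = 0.0623) and DESeq2 (adjusted p = 0.0664). Gzmb, the granzyme of activated killer cells, was not called, with 7 to 20 reads in KO kidneys at day 5, against 4 to 9 at day 0, and 13 to 20 in WT kidneys at day 5, against 2 and 11 at day 0. For Gzmb the log2 fold change was 0.43 ± 0.26 (SE, adjusted p = 0.174) in KO and 0.55 ± 0.31 (SE, adjusted p = 0.16) in WT kidneys. The pore-forming perforin gene Prf1 had 1 to 12 reads and the cytokine gene Ifng 0 to 4 reads per library, too few to pass the filter, so a change of either was not detectable at this depth.

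Tbx21, the factor T-bet of type 1 responses, had 10, 11 and 15 reads in KO kidneys at day 5, against 5, 6, 0 and 6 at day 0. Tbx21 in WT kidneys had 29, 21 and 23 reads at day 5, against 4 and 1 at day 0. The KO groups overlapped after scaling and the WT groups were far apart, and all 3 KO libraries of day 5 lay below all 3 WT libraries of day 5. For Tbx21 the log2 fold change was 0.48 ± 0.23 (SE, adjusted p = 0.0963) in KO kidneys, without a call, and 1.34 ± 0.27 (SE, adjusted p = 0.00136) in WT kidneys. Its relative Eomes, which marks NK and memory cytotoxic cells, was higher in every day 5 library but was not called, with log2 fold changes of 0.46 ± 0.19 (SE, adjusted p = 0.0508) in KO and 0.56 ± 0.22 (SE, adjusted p = 0.057) in WT kidneys.

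Promoters of 4 effector genes are shown because the RUNX core was common among them: 7 of the 10 NK and effector genes with an entry held it (Gzma, Gzmb, Prf1, Nkg7, Ncr1, Klrb1c and Klrk1), against 18.9% of all 27025 genes. The 10 genes are few, and the list was made of cytotoxic cell genes, so the share is a description. Capitals again mark RUNX core matches on either strand, and in Nkg7 also the T-box letters TCACACC, which 4.60% of all genes held. The windows are chr13:113100932-113101231 for Gzma, chr14:56262285-56262584 for Gzmb and chr6:129623815-129624114 for Klrk1, all on the minus strand, and chr7:43436888-43437187 on the plus strand for Nkg7.
Gzma: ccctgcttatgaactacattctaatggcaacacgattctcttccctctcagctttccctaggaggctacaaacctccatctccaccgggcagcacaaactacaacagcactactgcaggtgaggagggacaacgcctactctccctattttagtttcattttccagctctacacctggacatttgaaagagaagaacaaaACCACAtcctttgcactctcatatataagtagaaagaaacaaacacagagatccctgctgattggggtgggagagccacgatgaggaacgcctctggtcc
Gzmb: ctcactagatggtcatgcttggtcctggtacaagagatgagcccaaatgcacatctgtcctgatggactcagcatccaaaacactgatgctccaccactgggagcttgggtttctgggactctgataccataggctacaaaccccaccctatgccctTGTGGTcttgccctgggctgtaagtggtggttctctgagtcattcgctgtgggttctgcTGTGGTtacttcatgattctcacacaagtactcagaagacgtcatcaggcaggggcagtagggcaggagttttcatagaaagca
Klrk1: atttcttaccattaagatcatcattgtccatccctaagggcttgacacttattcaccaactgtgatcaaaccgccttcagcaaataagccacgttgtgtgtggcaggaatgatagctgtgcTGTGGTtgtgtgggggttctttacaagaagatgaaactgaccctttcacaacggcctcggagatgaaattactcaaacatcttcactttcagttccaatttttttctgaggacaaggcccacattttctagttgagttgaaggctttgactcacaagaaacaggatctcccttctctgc
Nkg7: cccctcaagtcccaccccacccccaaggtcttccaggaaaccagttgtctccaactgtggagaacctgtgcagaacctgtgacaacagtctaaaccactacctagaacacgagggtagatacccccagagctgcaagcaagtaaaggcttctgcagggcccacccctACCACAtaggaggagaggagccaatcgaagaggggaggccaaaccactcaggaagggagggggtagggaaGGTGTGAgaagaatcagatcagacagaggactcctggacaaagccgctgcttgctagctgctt
Gzma, Klrk1 and Nkg7 rose in both genotypes and Gzmb, with the core at 2 places, was not called. The octamer ATGCAAAT of B cell promoters, found in 1.97% of all genes, and the EBF motif, found in 1.06%, matched none of the 31 windows. Only 2 of these windows, of Cd79a and Jchain, belong to B lineage genes, too few to describe B cell promoters.

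In the B lineage, Ighm carried most of the reads. Ighm, the constant region of the IgM heavy chain used by naive B cells and by IgM plasma cells, had 377, 300 and 396 reads in KO kidneys at day 5, against 135, 58, 107 and 113 at day 0. Ighm in WT kidneys had 502, 281 and 324 reads at day 5, against 90 and 52 at day 0. All day 5 libraries exceeded all day 0 libraries, and the log2 fold change was 1.29 ± 0.24 (SE, adjusted p = 0.000544) in KO and 1.90 ± 0.29 (SE, adjusted p = 0.000138) in WT kidneys. Per kilobase of exon its level was the highest of the 36 genes, at 8.80 scaled CPM per kilobase in KO kidneys at day 5, 3.5 in KO kidneys at day 0, 9.20 in WT kidneys at day 5 and 2.28 in WT kidneys at day 0.

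Cd79b, one chain of the B cell receptor signalling pair, had 62, 55 and 52 reads in KO kidneys at day 5, against 18, 12, 20 and 13 at day 0. Cd79b in WT kidneys had 83, 53 and 55 reads at day 5, against 18 and 9 at day 0. The groups did not overlap, and its log2 fold change was 1.04 ± 0.21 (SE, adjusted p = 0.000978) in KO and 1.42 ± 0.25 (SE, adjusted p = 0.00047) in WT kidneys. Cd79a, the other chain of the same pair, had 15 to 28 reads in KO kidneys at day 5, against 6 to 18 at day 0, and 14 to 18 reads in WT kidneys at day 5, against 15 and 6 at day 0. The days overlapped in both genotypes. The log2 fold change of Cd79a was 0.19 ± 0.26 (SE, adjusted p = 0.56) in KO and 0.17 ± 0.31 (SE, adjusted p = 0.689) in WT kidneys, with 95% intervals of -0.37 to 0.74 and of -0.50 to 0.83. The pair therefore gave a call for one chain and none for the other, and the difference between the chains was not tested. Ms4a1, the B cell surface protein CD20, had 2 to 9 reads per library and did not pass the filter.

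Jchain, which joins secreted IgM and IgA and marks plasma cells, had 42, 22 and 53 reads in KO kidneys at day 5, against 17, 11, 52 and 38 at day 0. Jchain in WT kidneys had 64, 116 and 62 reads at day 5, against 28 and 6 at day 0. In KO kidneys the days overlapped and in WT kidneys they did not, with the highest value, 116 reads, in a globin-rich library. For Jchain the log2 fold change was 0.04 ± 0.42 (SE, adjusted p = 0.948) in KO kidneys and 1.60 ± 0.50 (SE, adjusted p = 0.0197) in WT kidneys, and the difference between the genotypes, -1.56 on the log2 scale, was not called (adjusted p = 0.648). Under edgeR the KO change was -0.07. The WT call of Jchain held in 21 of 23 alternative settings, and was lost without WT day 5 replicate 2, the library of 116 reads. Its WT log2 fold change ran from 0.54 to 2.54 over the alternative settings.

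**Figure D4:**
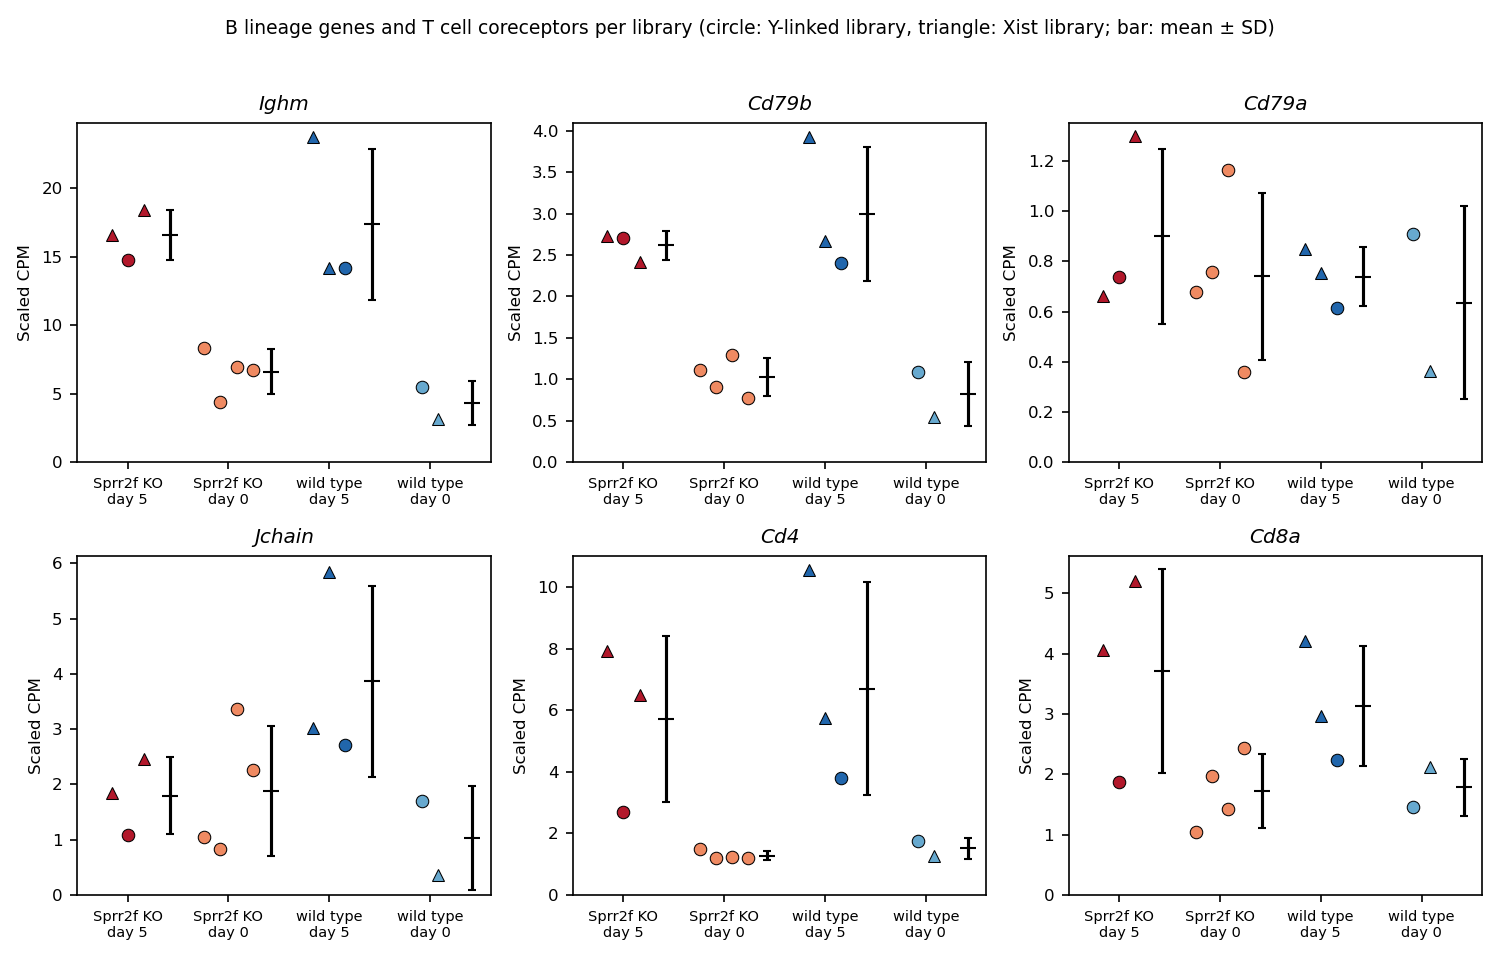
Scaled CPM (vertical axis) of Ighm, Cd79b, Cd79a, Jchain, Cd4 and Cd8a in each of 12 libraries, by group; circles are libraries with Y-linked transcripts, triangles those with Xist, and bars the mean ± SD. Ighm, Cd79b and Cd4 separate day 5 from day 0 in both genotypes, Cd79a does not, and Jchain separates them in wild type kidneys.

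Further lymphocyte genes, listed with earlier results of these data known, were read beside the 36. Of 32 tested further T cell genes, 22 rose and 1 fell in KO kidneys and 16 rose and 1 fell in WT kidneys. Of all tested genes 29.4% rose and 25.4% fell in KO kidneys, and 24.5% rose and 22.6% fell in WT kidneys. Among those with the smallest adjusted p in either genotype were Thy1 (log2 fold change 3.67 ± 0.17 in KO and 4.33 ± 0.20 in WT kidneys), Gata3 and Il2rg, and Thy1 is also carried by fibroblasts and Gata3 by kidney collecting duct cells. Bcl11b, a factor of T cell commitment, was the one that fell, by 1.06 in KO and by 0.85 in WT kidneys on the log2 scale. Its day 0 level was 12.9 scaled CPM in KO and 11.0 in WT kidneys. The 20 T cell genes together summed to 15.6 and 15.8 there, and which cells the Bcl11b reads came from was not tested. Of 19 further NK and cytotoxic genes 12 rose in each genotype and 0 fell, with the smallest adjusted p in either genotype for Il18rap, Klrb1b, Sh2d1b1 and Cd244a.

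Of 25 further B and plasma cell genes, 12 rose in KO and 10 in WT kidneys and 0 fell. Over all tested genes 29.4% rose in KO and 24.5% in WT kidneys. Those with the smallest adjusted p in either genotype were Cd72 (log2 fold change 1.65 ± 0.15 in KO and 2.16 ± 0.18 in WT kidneys), Sdc1, Tnfrsf13b and Cd37, of which Sdc1 is an epithelial proteoglycan as well as a plasma cell marker. The B cell factor Pax5 and the IgD heavy chain Ighd, looked at after the values were seen, were not called. The kappa light chain Igkc rose, with a log2 fold change of 1.18 ± 0.36 in KO and 1.80 ± 0.43 in WT kidneys, and the IgA heavy chain Igha had one of 0.93 ± 0.58 in KO kidneys, without a call, and of 3.07 ± 0.69 in WT kidneys, with one.

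Factors that attract lymphocytes or keep them alive were also read. Of 24 tested, 13 rose in KO and 14 in WT kidneys and 1 fell in each, beside rises of 29.4% and 24.5% of all tested genes. The adhesion ligand Vcam1 had a log2 fold change of 5.10 ± 0.33 in KO and 5.13 ± 0.39 in WT kidneys, and the related Icam1 one of 2.23 ± 0.16 in KO and 2.65 ± 0.19 in WT kidneys. The alarmin Il33 (2.34 ± 0.17 in KO and 2.34 ± 0.21 in WT kidneys) and the chemokine Cxcl16, ligand of Cxcr6, followed. The gene that fell was Il15, a survival cytokine of NK and memory T cells, by 0.62 in KO and by 0.80 in WT kidneys. The listed genes of lymph node stroma, which could enter a dissected kidney with hilar tissue, summed to 4.19 to 5.16 scaled CPM in KO kidneys at day 5, 2.14 to 2.58 in KO kidneys at day 0, 2.27 to 5.84 in WT kidneys at day 5 and 2.18 and 3.33 in WT kidneys at day 0. Ccl21a, a defining chemokine of that stroma, was listed at 0 in every library. Whether its reads were lost to sequences shared with other genes was not examined, so the 0 does not show that the transcript was absent. Madcam1, an addressin of the same list, was the 1 of 4 tested genes that rose, with a log2 fold change of 2.08 ± 0.21 in KO and 1.84 ± 0.25 in WT kidneys. The part of such tissue in the lymphocyte values was not tested.

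Several lists of other leukocytes had larger median changes on this scale, and macrophage genes had far higher summed levels. The median log2 fold change was 1.03 in KO and 1.0 in WT kidneys for the 20 T cell genes, 0.72 in KO and 1.13 in WT kidneys for the 9 NK and effector genes, and 0.62 in KO and 1.51 in WT kidneys for the 4 B lineage genes. It was 2.48 in KO and 2.88 in WT kidneys for 16 macrophage genes, of which 14 rose in KO and 15 in WT kidneys. Over all tested genes 29.4% rose in KO and 24.5% in WT kidneys. The median log2 fold change of 12 genes of leukocytes in general was 2.0 in KO and 2.24 in WT kidneys. For 13 dendritic cell genes it was 1.13 in KO and 1.60 in WT kidneys, with 11 genes of each list rising in each genotype. Cytip, of the general list, fell by 0.57 in WT kidneys. The sums carry no added constant: macrophage genes summed to 1309 ± 219 scaled CPM in KO kidneys at day 5, against 277 ± 29.8 at day 0, a ratio of 4.73. They summed to 1256 ± 165 in WT kidneys at day 5, against 233 ± 9.01 at day 0, a ratio of 5.38. The T cell ratios were 2.90 in KO and 3.05 in WT kidneys. For NK and effector genes they were 2.55 and 4.25, and for B lineage genes 2.11 and 3.55. General leukocyte genes had ratios of 3.43 in KO and 3.90 in WT kidneys, and dendritic cell genes 3.25 and 4.57. In KO kidneys at day 5 the mean dendritic sum of 1090 scaled CPM held 514 of H2-Ab1 and 376 of H2-Aa. With edgeR, without the added constant, the median was 1.28 in KO and 1.85 in WT kidneys for dendritic cell genes. It was 1.46 and 1.58 for T cell, 1.37 and 2.0 for NK and effector, and 0.81 and 1.88 for B lineage genes. Medians of macrophage (2.59 and 2.91) and general leukocyte genes (2.05 and 2.47) stayed above these. The difference between lists was not tested.

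**Figure D5:**
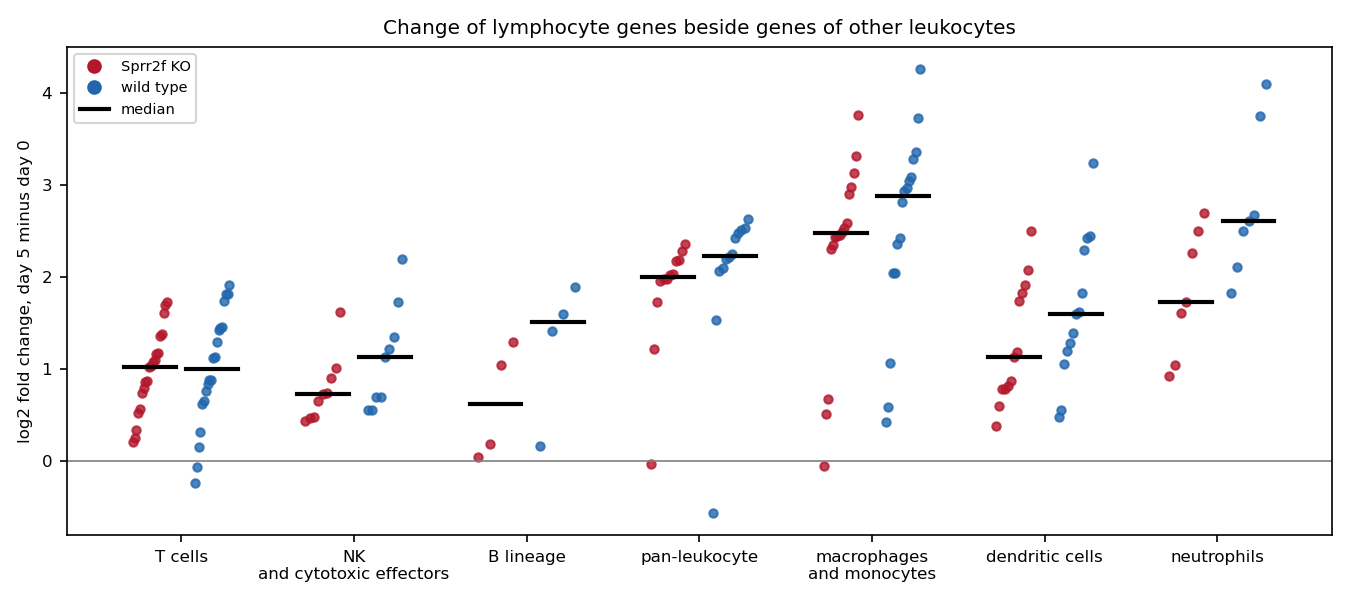
Log2 fold change of (scaled CPM + 0.5), day 5 minus day 0 (vertical axis), of each tested gene in 7 lists (horizontal axis), in Sprr2f KO (red) and wild type (blue) kidneys; each point is a gene and the black bar the median of its list. The macrophage medians, 2.48 and 2.88, lie above the T cell medians, 1.03 and 1.0.

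Neutrophil genes summed to 24.2, 52.9 and 15.7 scaled CPM in KO kidneys at day 5, against 3.26 to 3.82 at day 0, and to 58.4, 58.4 and 88.6 in WT kidneys at day 5, against 3.57 and 5.74 at day 0. Perirenal fat genes summed to 74.4 to 254 scaled CPM in KO kidneys at day 5, 77.2 to 152 in KO kidneys at day 0, 172 to 306 in WT kidneys at day 5 and 68.2 and 229 in WT kidneys at day 0, with overlap throughout. Genes of kidney epithelium moved the other way, with sums of 3452 to 7378 in KO kidneys at day 5, against 15619 to 16235 at day 0, and of 3868 to 5413 in WT kidneys at day 5, against 14902 and 17798 at day 0. The part of this in the lymphocyte values was not tested. Without the TMM factors the median over all tested genes was 0.45 in KO and 0.40 in WT kidneys, and 30 of the 33 lymphocyte genes rose in KO and 28 in WT kidneys, beside 55.9% and 47.3% of all genes.

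Between genotypes, 0 of 33 genes were called at day 5, KO against WT, where 0% of all tested genes were called in either direction. Unadjusted p under 0.05 was reached by 1 gene with limma, by 0 with edgeR, by 1 with DESeq2 and by 1 with limma-voom, and none of these tools gave an adjusted p under 0.05 (DESeq2 gave none for any of the 33). The gene with the smallest p was Tbx21, at -0.64 ± 0.24 (KO minus WT, SE, adjusted p = 0.853), followed by Ctla4 at -0.40 ± 0.20, Jchain at -0.90 ± 0.45 and Klrk1 at -0.38 ± 0.23. The log2 differences ran from -0.90 to 0.30. The 95% intervals, which are not adjusted for the number of genes tested, extended a median of 0.55 to either side. Differences smaller than this were not detectable at this depth and number of libraries. Larger ones, as for Tbx21 and Jchain, were not called either, so 0.55 is not a limit above which a difference would have been found.

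At day 0, KO against WT, again 0 of 33 were called, where 0% of all tested genes were higher and 0.0166% lower. Unadjusted p under 0.05 was reached by 3 genes with limma, 4 with edgeR, 3 with DESeq2 and 3 with limma-voom. Trbc2 differed by 0.89 ± 0.24 (adjusted p = 0.151), Il7r by -0.71 ± 0.23 (adjusted p = 0.199), Cd27 by -0.53 ± 0.21 (adjusted p = 0.274) and Ighm by 0.58 ± 0.27 (adjusted p = 0.341). These rest on 4 KO libraries and 2 WT libraries, and all 4 KO libraries but 1 of the 2 WT libraries held Y-linked transcripts.

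The effect of obstruction was also compared between genotypes as an interaction, the KO change minus the WT change. Of 33 genes 0 were called, where 0.00553% of all tested genes were higher and 0% lower, and unadjusted p under 0.05 was reached by 5 genes with limma, 5 with edgeR, 5 with DESeq2 and 3 with limma-voom. The genes with the smallest p were Trbc2 at -0.88 ± 0.34 (adjusted p = 0.619), Klrk1 at -0.83 ± 0.34, Tbx21 at -0.87 ± 0.36 and Il7r at 0.77 ± 0.32. A call in one genotype and not in the other, as for Cd3e, Cd28 or Jchain, is therefore not shown to be a difference between genotypes.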

How the data were processed

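mRNA libraries of 12 left kidneys were sequenced to 50 bases, per the labels' protocols. Reads were aligned with STAR and counted with SAMtools and HTSeq on GRCm38.p6, per the submitters' processing notes; versions and the strand setting are not given in the sources used here. The authors deposited CPM per gene in 1 table, with 0 value columns left unused. Dividing by the value of 1 read gave whole numbers within 0.001 for 100% of 665652 values, so reads could be recovered. Of 55471 identifiers, 55230 are in GENCODE M21.

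Low genes were removed with edgeR filterByExpr (minimum count 10, minimum total 15), leaving 18093 genes with 99.9% of reads. CPM was divided by TMM factors, log2(CPM + 0.5) was fitted in limma 3.58.1 (R 4.3.3) with a trended empirical Bayes prior over all 4 groups, and p was adjusted by Benjamini-Hochberg over all tested genes. edgeR 4.0.16 quasi-likelihood, DESeq2 1.42.0 and limma-voom on recovered reads were alternatives. The code was tested on simulated data. Intervals and errors cover counting and library spread only.

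The members, the further gene lists and the rule for named genes were chosen with earlier results of these data known. All 36 members are accounted for, with every library's reads for those called in an obstruction comparison; between genotypes the 4 with the smallest p are named if fewer than 4 are called, and up to 4 genes of each further list, by adjusted p. Some genes of the further lists are not reported here.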

Additional observations from a re-analysis of the deposited data

Results flagged for a closer look

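In KO kidneys at day 0, 3 of 39 sets of 4 libraries held a value standing apart from the other 3 by Dixon's test, which flags about 1 in 20 sets by chance. Cd4 was at 1.48 scaled CPM in replicate 1 and between 1.19 and 1.23 in the other libraries. Cd2 was at 0.989 in replicate 1 and between 0.583 and 0.607 in the others. The summed T cell genes were at 16.4 in replicate 4, beside 15.2 to 15.4.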

How the results depend on the processing

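The counts of genes that rose moved by over 1.5 times under settings that change which libraries are read. With only Y-linked libraries, a setting chosen after seeing the data, 12 members, 8 T cell genes and 2 NK and effector genes were called in KO kidneys, and 8 members, 4 T cell, 3 NK and effector and 1 B lineage genes in WT kidneys. Without the 2 haemoglobin-rich WT libraries, also chosen after seeing the data, 11 members and 5 T cell genes were called in WT kidneys. With only the groups compared, 3 of 5 tested NK and effector genes rose in KO kidneys, and 3 of 9 with the sex pattern as covariate. With that covariate 8 calls were lost, all in KO kidneys, for Cd2, Cd3g, Cd8a, Trbc1, Pdcd1, Nkg7, Ncr1 and Klrb1c. In these last settings fewer libraries, fewer genes or a further term entered the fit; the cause of each lost call was not tested. Leaving out 1 library at a time gave 18 to 24 members called in KO and 18 to 25 in WT kidneys.

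No paired analysis was possible because the labels carry no replicate numbers that are shared between groups. Single genes changed sign 17 times, each in a comparison where the gene had no call. Jchain in KO kidneys was -0.0696 with edgeR, -0.108 with DESeq2, -0.0308 with the sex covariate and -0.44 with only Y-linked libraries, and without 1 library at a time it ran from -0.21 to 0.30. Cd79a without 1 library at a time ran from -0.00837 to 0.33 in KO kidneys and from -0.19 to 0.52 in WT kidneys, and was -0.33 in WT kidneys with only Y-linked libraries. Gzmb in KO kidneys was -0.0071 with only Y-linked libraries. In WT kidneys Cd28 ran from -0.14 to 0.44 without 1 library at a time and was -0.26 with only Y-linked libraries. Cd27 was 0.0741 with library size only, and Foxp3 was 0.14 with library size only and ran from -0.16 to 0.0232 without 1 library at a time. Both of the lower WT values of Cd28 and Cd79a, and the higher one of Foxp3, were without WT day 0 replicate 2. Of the other values for single genes, 1769 kept their direction and side of the threshold, 126 lost a call and 22 gained one. In KO kidneys 14 genes, and in WT kidneys 15, kept their call under each setting fixed at the start that gave a value.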

Other observations

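Differences between libraries with Y-linked transcripts and libraries with Xist were read as a term of their own, a comparison chosen after seeing the data. Over all 12 libraries, Y-linked minus Xist with group in the fit, 0 of 33 members were called with limma, 6 had an unadjusted p under 0.05 and 26 had a value below 0, with a median of -0.16. Over all 18093 genes tested, 639 were called higher and 797 lower, 3.53 and 4.41%. Over the 6 day 5 libraries alone, Cd4 was called, at -1.11 ± 0.24 (SE, adjusted p = 0.0316), 10 of 32 members had an unadjusted p under 0.05 and 30 were below 0. That 1 of 32 members was called lower compares with 3.02% of all genes in this fit. Cd8a was at -0.84 there (adjusted p = 0.0596). The day 5 comparison rests on 2 libraries with Y-linked transcripts and 4 with Xist, and the globin-rich WT libraries are both among those with Xist, so sex pattern and blood content cannot be told apart in WT kidneys.

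The neutrophil list had a median log2 difference of -1.16 between KO and WT kidneys at day 5 (KO minus WT) over 7 tested genes. Of these 7 genes 6 had an unadjusted p under 0.05 and none was called (limma, smallest adjusted p = 0.605). The red blood cell list had a median of -2.22 over 7 genes in the same comparison, also with no call.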
